A study of Macaca fascicularis with 22 samples.

Results

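Complement is a cascade of plasma proteins made mainly by hepatocytes. C3 is the protein on which the activation routes converge, C5 is cleaved next, and C6, C8 and C9 join the pore of the membrane attack complex, while regulators such as C4b-binding protein restrain or modulate the cascade. The 10 genes described here are the complement components C3 (accession NM_000064 on the array), C5 (NM_001735), C6 (NM_000065), C8A (NM_000562), C8B (NM_000066) and C9 (NM_001737), and the regulators C4BPA (NM_000715), C4BPB (probe A_01_P006336), CFHR2 (probe A_01_P007134) and CFHR3 (probe A_01_P001809). They were chosen by these identifiers, and all 10 were found among the 19376 accessions of the array, each as 1 probe in 2 spots.

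RNA of 3 tissues of cynomolgus macaque (Macaca fascicularis) neonates was hybridized to 22 single-colour rhesus macaque arrays, to compare animals of lower birth weight (LBW, 5th to 25th centile) with animals of average birth weight (ABW, 50th to 75th centile). Skeletal muscle and umbilical cord had 4 arrays in each birth weight group and liver had 3, by the sample labels. The pregnancies came from a single sire at 1 breeding colony, and within a tissue the labels describe the groups as differing in birth weight. Cord was collected at birth, and the methods place the sampling of liver and biceps on a later day, whereas the labels put all tissues at birth. Nothing in the labels ties an array to an animal, so p-values measure the spread between arrays. The methods describe liver and muscle as collected from the selected neonates, so arrays of different labels may share animals. The main fits across labels took the arrays as independent.

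A level is given throughout as the log2 signal of a probe minus the 75th percentile of its array, so that 0 is that percentile, and levels were compared between arrays and not between genes. The 75th percentile lay between 315.5 and 2390 intensity units, and between 14596 and 17889 of 20217 probes were well above background on an array. Of the 6 slides used, 1 held the skeletal muscle ABW arrays and another the muscle LBW arrays, and for muscle the slide and the birth weight group cannot be told apart. Of the arrays labelled liver, the ABW arrays and LBW replicate 1 were on slide 3, and LBW replicates 2 and 3 were on slide 4. Of the arrays labelled umbilical cord, ABW replicates 1 and 2 were on slide 4 and the LBW arrays on slide 5, while ABW replicates 3 and 4 were on slide 6, which was scanned apart from the others and whose negative controls had a net signal of 16.8 to 17.1 intensity units against 29.2 to 35.4 elsewhere.

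The tissue labels of liver and umbilical cord went against the marker genes. All 18 genes of a hepatocyte list, among them the plasma proteins ceruloplasmin (CP) and factor XIII B (F13B), had all their umbilical cord values above all their values on the arrays labelled liver, with a median difference of 7.20 on the log2 scale. The summed signal of the list, in units of the array's 75th percentile, was 135.4 to 314.4 on the arrays labelled umbilical cord and 1.12 to 1.64 on those labelled liver. On the latter 6 of the 18 genes were well above background on no array. Of 10 stroma and matrix genes 8 were higher on the arrays labelled liver (adjusted p under 0.05), and all 8 striated muscle genes were higher on the skeletal muscle arrays than on either. The arrays are therefore named by their labels, and no tissue is assumed from them.

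All 10 complement genes were highest on the arrays labelled umbilical cord, where each was well above background on all 8 arrays. For each of the 10, the lowest of these arrays lay above the highest array labelled liver, a separation found at 18.7% of all probes tested, and above the highest skeletal muscle array, found at 14.4%. In the fit of all probes the 10 were called higher (limma, adjusted p under 0.05) in both comparisons, where 35.6% of all probes were higher than on the arrays labelled liver and 29.1% higher than on skeletal muscle. The liver label had 6 of the 10 above background on no array. These were C6, C8A, C4BPA, C4BPB, CFHR2 and CFHR3, which were kept for testing only through their signal on the umbilical cord label. For them, being higher there was largely set by that filter, and their calls and separations are not independent support. No value of these genes was saturated. Fewer cells of a type and less RNA per cell cannot be told apart in such bulk samples.

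**Figure D1:**
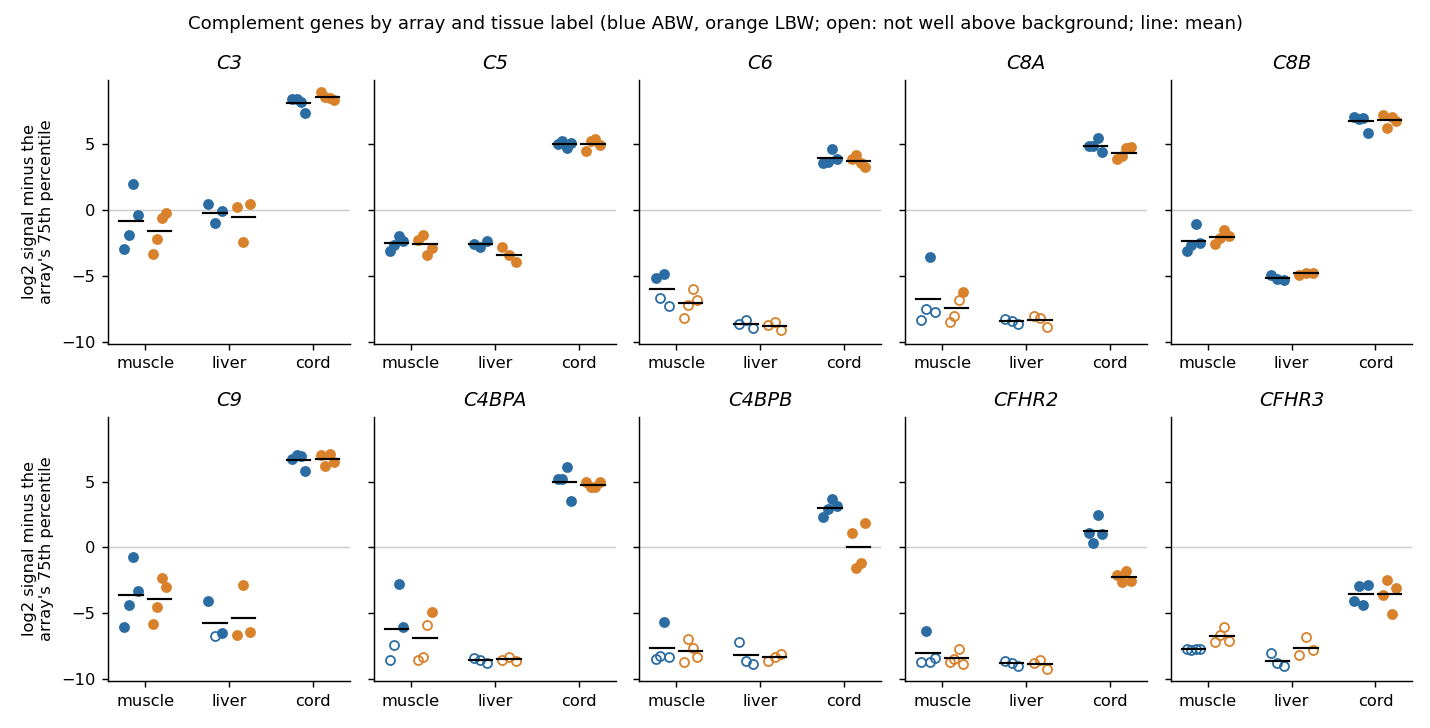
The vertical axis gives the log2 signal minus the array's 75th percentile for each of the 10 complement genes, with the 3 tissue labels on the horizontal axis, ABW arrays in blue and LBW arrays in orange. Open circles were not well above background and the bars are group means. All 10 genes sit highest on the arrays labelled cord, and within those arrays only C4BPB and CFHR2 have LBW arrays that all lie under the ABW arrays.

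C3, from which the fragments C3a and C3b are cut, had levels of 8.46, 8.42, 8.25 and 7.36 on the ABW arrays labelled umbilical cord and 9.0, 8.59, 8.48 and 8.35 on the LBW arrays. The groups overlapped, and the difference of LBW from ABW was 0.49 (SE 0.33, n = 4 and 4, limma adjusted p = 0.671). Where the label was liver C3 lay at 0.49, -1.0 and -0.08 in ABW and at 0.24, -2.40 and 0.46 in LBW. On skeletal muscle it ran from -2.98 to 1.98 in ABW and from -3.33 to -0.26 in LBW. The arrays labelled umbilical cord stood 428.6-fold above those labelled liver (log2 difference 8.74, SE 0.64, adjusted p = 2.27e-10) and 762.6-fold above muscle (9.57, SE 0.60, adjusted p = 1.37e-11). The difference of the liver label from muscle at C3 did not pass the test (log2 difference 0.83, SE 0.64, adjusted p = 0.266), but did so without skeletal muscle ABW replicate 3 (1.30, adjusted p = 0.0435) and with spike-in scaling (1.56, adjusted p = 0.0392).

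C5, the precursor of the chemoattractant C5a and of C5b, which starts the attack complex, varied little on the arrays labelled umbilical cord. It read 5.02, 5.23, 4.75 and 5.13 in ABW and 4.52, 5.23, 5.39 and 4.92 in LBW, a difference of -0.02 (SE 0.29, adjusted p = 0.992). With the liver label it read -2.55, -2.83 and -2.37 in ABW and -2.79, -3.40 and -3.95 in LBW, with a difference of -0.80 (SE 0.32, unadjusted p = 0.0445, adjusted p = 0.822 by limma). The groups overlapped there and the two-sided exact permutation p was 0.20, where 0.10 is the smallest that 3 against 3 arrays allow. Only LBW replicate 1, at -2.79, shared the slide of the ABW arrays, whose mean was -2.58. The lower LBW arrays were both on slide 4. With the slide as a fixed block, where LBW replicate 1 alone stands against the ABW arrays, the difference was -0.21. A fit that rests on 1 LBW array cannot settle the part of the slide. The arrays labelled umbilical cord were 257.1-fold above those labelled liver (log2 difference 8.01, SE 0.24). Muscle lay between -3.38 and -1.93, and its difference from the liver label did not pass the test (adjusted p = 0.143).

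Of the genes of the membrane attack complex, C8A and C8B encode the alpha and beta chains of C8 and stand next to each other in the macaque reference gene order (RefSeq, assembly T2T-MFA8v1.1), with no protein-coding gene between them. C8B read 7.11, 6.95, 7.04 and 5.88 on the ABW arrays labelled umbilical cord and 7.20, 6.22, 7.08 and 6.80 on the LBW arrays. C8A read 4.88, 4.85, 5.45 and 4.43 in ABW and 3.87, 4.15, 4.72 and 4.76 in LBW. Both groups overlapped for both genes, with differences of LBW from ABW of 0.08 (SE 0.36) for C8B and -0.53 (SE 0.33) for C8A (limma adjusted p = 0.962 and 0.654).

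The 2 chains of C8 had different patterns away from that label. C8B was well above background on every array, at -5.34 to -4.76 on those labelled liver and -3.11 to -1.04 on muscle. All muscle arrays lay above all arrays labelled liver, by 7.04-fold (log2 difference of liver from muscle -2.81, SE 0.28, adjusted p = 2.88e-08). C8A was above background on 2 of the 8 muscle arrays and on no array labelled liver, and was at least 2428-fold higher on the arrays labelled umbilical cord than on those labelled liver. That bound takes each dim array at the lowest signal of any probe with both spots well above background, or at the gene's own value if higher. All bounds given here are made the same way.

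C6, which binds C5b, was above background on 2 muscle arrays, both ABW, and on no array labelled liver. The umbilical cord label read 3.60, 3.64, 4.65 and 3.85 in ABW and 3.85, 4.21, 3.59 and 3.26 in LBW, at least 1388-fold above the arrays labelled liver. The groups overlapped, with a difference of -0.21 (SE 0.34, adjusted p = 0.878). On muscle the ABW arrays read -5.16, -6.66, -4.83 and -7.32 and the LBW arrays -8.23, -7.20, -6.01 and -6.82. The groups overlapped, and the fitted difference of -1.07, which includes 6 values under background, did not pass the test (SE 0.63, adjusted p = 0.474).

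C9, the last component, which polymerizes into the pore, read 6.76, 7.03, 6.93 and 5.83 in ABW and 7.0, 6.16, 7.10 and 6.50 in LBW where the label was umbilical cord. The difference was 0.06 (SE 0.36, adjusted p = 0.979). The arrays labelled liver read -4.06, -6.72 and -6.48 in ABW and -6.70, -2.88 and -6.45 in LBW, so that 1 array in each group stood above the others. On muscle it ran from -6.08 to -0.70 in ABW and from -5.79 to -2.31 in LBW. The arrays labelled umbilical cord were 4739-fold above those labelled liver (log2 difference 12.21, SE 0.75, adjusted p = 1.32e-11), with 5 of the 6 liver arrays above background, and the log2 difference was 12.83 without liver LBW replicate 2.

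Of the 4 regulators, CFHR2 was called by birth weight, on the umbilical cord label. C4b-binding protein is a plasma inhibitor of the classical and lectin routes, built of alpha chains (C4BPA) and a beta chain (C4BPB), whose genes are adjacent in the reference order with no protein-coding gene between them. CFHR2 and CFHR3 belong to 1 family of plasma proteins that modulate the alternative route, and in the same order 1 protein-coding gene lies between them. The names of C4BPB, CFHR2 and CFHR3 stand in the study's own list of genes with a birth weight effect in these samples, so their differences are not independent evidence of a direction. The other 7 genes are not in that list.

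On the umbilical cord label, CFHR2 was lower in LBW than in ABW. It read 1.06, 0.34, 2.45 and 1.04 on the ABW arrays and -2.13, -2.65, -1.76 and -2.59 on the LBW arrays. Every LBW array lay under every ABW array, which was also the case at 3.21% of all probes tested. The group means were 1.22 ± 0.88 and -2.28 ± 0.42 (SD, n = 4 each). LBW was 11.3-fold lower (log2 difference -3.50, SE 0.44), with an adjusted p of 0.00751 by limma and a two-sided exact permutation p of 0.0286, the smallest that 4 against 4 arrays allow. Of all probes tested 0.625% were called in this comparison and 0.602% were called lower, and CFHR2 was the 1 complement gene of the 10 called.

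No slide held both groups, so a difference between slide 5 and the others cannot be told apart from birth weight. Against the 2 ABW arrays of slide 4 alone the difference of CFHR2 was -2.98 (unadjusted p = 6.79e-05, adjusted p = 0.0557, with no probe called by limma), and against those of slide 6 alone it was -4.03 (adjusted p = 0.0096). With the slide as a random block, which cannot remove a slide effect in this layout, the adjusted p was 0.0019. Left out in turn, no single array ended the call, with adjusted p between 0.01 and 0.033. Scaled to the spike-in controls the difference was -3.94 with an adjusted p of 0.306, while under the methods' t-test CFHR2 passed their own threshold (unadjusted p under 0.05 with a 1.5-fold difference) at an unadjusted p of 0.00154. Its adjusted p by that test was 0.408, and no probe passed after adjustment, where 1217 had an unadjusted p under 0.05.

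C4BPB read 2.33, 2.92, 3.71 and 3.17 on the ABW arrays labelled umbilical cord and 1.07, -1.54, -1.17 and 1.88 on the LBW arrays. The groups did not overlap, but the LBW arrays were spread over 3.42 log2 units, with replicates 1 and 4 near the ABW arrays and replicates 2 and 3 well under them. The difference was -2.97 (SE 0.72, unadjusted p = 0.0019), and it did not pass the test over all probes (limma adjusted p = 0.164). Leaving out single arrays aside, it passed in 2 of 14 alternatives. These were the slide as a random block (adjusted p = 0.0495), under the same limit as for CFHR2, and the spread of all 6 groups (adjusted p = 0.0223). That spread includes arrays of the other labels, where C4BPB was mostly under background. The limma adjusted p was 0.9998 against the ABW arrays of slide 4 alone and 0.23 against those of slide 6 alone. By the methods' t-test the unadjusted p was 0.032 and the adjusted p 0.70.

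C4BPA, the partner chain, read 5.17, 5.19, 6.12 and 3.56 in ABW and 4.94, 4.58, 4.59 and 4.96 in LBW on the same arrays. The LBW arrays lay within the range of the ABW arrays, with a difference of -0.24 (SE 0.48, adjusted p = 0.905). CFHR3 read -4.07, -2.93, -4.37 and -2.87 in ABW and -3.63, -2.50, -5.08 and -3.10 in LBW, a difference of -0.02 (SE 0.57, adjusted p = 0.997). The direct difference between the chains, or between CFHR2 and CFHR3, was not tested. The plot of the regulators on these arrays sets the 4 genes side by side.

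**Figure D2:**
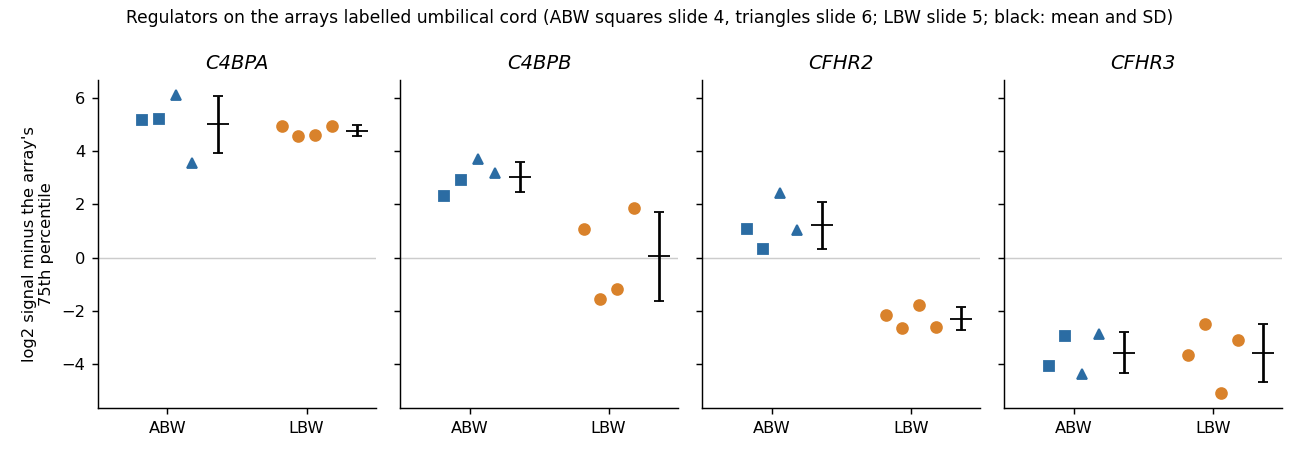
The vertical axis gives the log2 signal minus the array's 75th percentile for the 4 regulators on the arrays labelled umbilical cord, ABW in blue (squares on slide 4, triangles on slide 6) and LBW in orange (slide 5). Black bars show the mean and SD of 4 arrays. The CFHR2 means are 1.22 and -2.28 and the C4BPB means 3.03 and 0.06, with no overlap of the groups, while the C4BPA and CFHR3 groups overlap.

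Some hepatocyte genes moved on the same arrays, and the list as a whole did not move one way. Of the 18, which also come from the study's list of birth weight genes, 7 had a mean below and 11 a mean above that of ABW, with a median difference of 0.50 against -0.01 over all probes. F13B, CP and ACMSD, an enzyme of tryptophan breakdown, were called lower, with differences of -3.81, -3.73 and -3.83 (adjusted p = 0.00707, 0.00909 and 0.0122). None was called higher, and HGFAC, a protease of the liver, had a difference of 1.43 (adjusted p = 0.0973). The 2 summaries of the list differed in direction, since the summed signal was 135.4 to 218.1 in ABW and 226.4 to 314.4 in LBW, while the mean log2 level was 0.68 to 1.17 in ABW and 0.14 to 0.66 in LBW. In the reference order F13B and CFHR2 are separated by 1 protein-coding gene, CFHR5. The part of these genes in the CFHR2 result was not tested.

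On the other labels the regulators were mostly dim. CFHR2 was above background on 1 of the 8 muscle arrays, ABW replicate 2 at -6.34, and on no array labelled liver, and the arrays labelled umbilical cord were at least 67.6-fold above those labelled liver. C4BPB was likewise above background on 1 muscle array, ABW replicate 3 at -5.71, and was at least 285.2-fold higher on the umbilical cord label than on the liver label. For C4BPA the bound was at least 2891-fold. CFHR3 was above background on no muscle array and no array labelled liver, and it was at least 8.22-fold above the liver label and 6.02-fold above muscle on the umbilical cord label.

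CFHR3 on muscle was higher on every LBW array (-7.20, -6.69, -6.03 and -7.09) than on every ABW array (-7.74, -7.77, -7.69 and -7.70). How many of all probes were separated so on muscle was not counted, and slide and birth weight group cannot be told apart there. The fitted difference was 0.97 (SE 0.26, unadjusted p = 0.00443, adjusted p = 0.142 by limma). For the liver label it was 0.98 (SE 0.43, adjusted p = 0.831), with ABW at -8.02, -8.78 and -9.02 and LBW at -8.21, -6.83 and -7.83. None of these 14 values was well above background, so no fold is given for either label. Over the alternatives run the difference went from 0.02 to 1.115 on muscle and from -0.05 to 1.28 on the liver label. It was called in none of them.

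**Figure D3:**
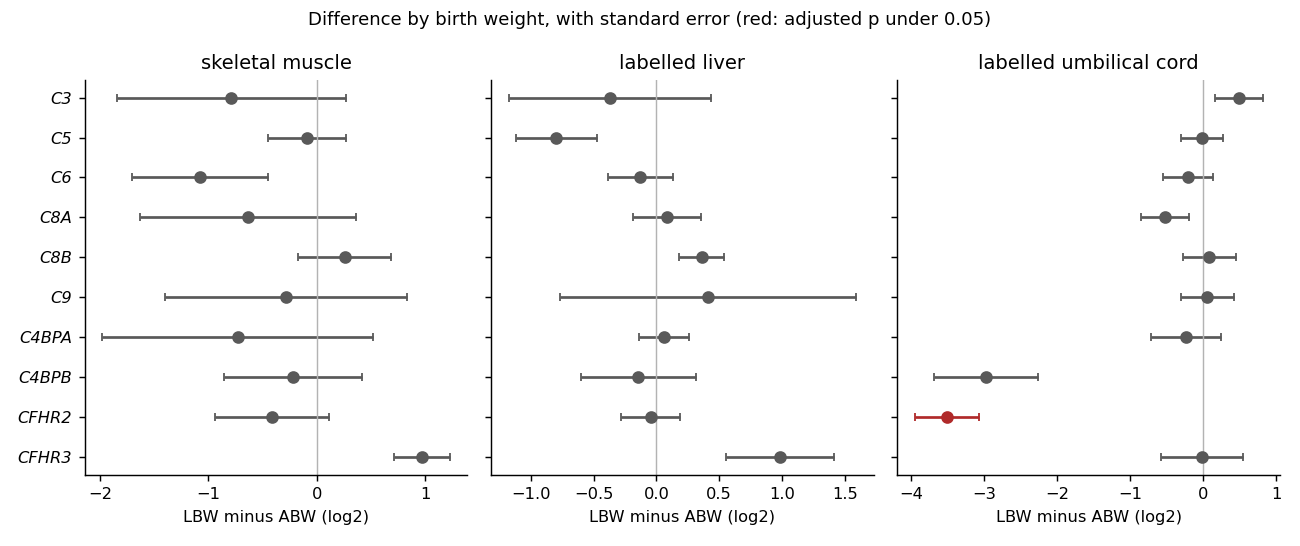
The horizontal axis gives the LBW minus ABW difference on the log2 scale for the 10 complement genes, with 1 panel for each tissue label, and bars are standard errors. CFHR2 on the arrays labelled umbilical cord, at -3.50, is the point in red, for an adjusted p under 0.05, and C4BPB there is at -2.97 in grey.

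Across the labels, no complement gene was called by birth weight on skeletal muscle or on the arrays labelled liver (limma, adjusted p under 0.05), where 0% of all probes were called on either. At an unadjusted p under 0.05 muscle had 1 of the 10, CFHR3, against 14.7% of all probes, and the liver label had 1, C5, against 5.99%. The umbilical cord label had 2, CFHR2 and C4BPB, against 8.94%. The median difference of the 10 genes was -0.35 on muscle, 0.01 on the liver label and -0.11 on the umbilical cord label, where all probes had medians of 0.07, 0.06 and -0.01.

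The difference by birth weight itself differed between the tissue labels at CFHR2 (interaction of birth weight and label, adjusted p = 0.0155), 1 of the 10 genes and 1.01% of all probes. Its difference was -0.41 on muscle (SE 0.53) and -0.05 on the liver label (SE 0.24), where nearly all values were under background. A difference could hardly be measured on those 2 labels. The interaction thus largely restates the difference on the umbilical cord label and does not show that the labels differ. C4BPB did not pass the interaction test (adjusted p = 0.303). The mean difference over the 3 labels was called at CFHR2 (-1.32, SE 0.28, adjusted p = 0.0271), again 1 of the 10 genes, against 0.888% of all probes. Without the 2 arrays of slide 6 the adjusted p for CFHR2 rose to 0.114 in the interaction and 0.0823 in the mean difference. The mean difference also lost its call without any 1 of 6 arrays, which were skeletal muscle LBW replicate 1, umbilical cord LBW replicate 4, liver ABW replicates 1 and 2 and liver LBW replicates 1 and 3 (adjusted p between 0.0501 and 0.0685).

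The muscle arrays differed among themselves at these genes more than at most probes. The range of a gene over the 8 arrays was 1.45 to 5.78 on the log2 scale with a median of 3.21, against a median of 1.23 over all probes. Only 4 genes were above background on every muscle array, C3, C5, C8B and C9, with ranges of 5.32, 1.45, 2.07 and 5.38. The ranges of the others include values under background. ABW replicate 3 had the highest level of the ABW arrays at 9 of the 10 genes, CFHR2 being the exception, against 20.4% of all probes. The 9 include CFHR3, which was under background on every muscle array and read -7.69 there against -7.70 on ABW replicate 4. It read 1.98 at C3, -0.70 at C9, -1.04 at C8B, -3.54 at C8A and -2.78 at C4BPA, where the next ABW array read -0.37, -3.35, -2.49, -7.50 and -6.03.

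Hepatocyte genes were at low levels on muscle. On ABW replicate 3 they were highest of the ABW arrays at 9 of the 18 and lowest at 5, where 20.4% of all probes were highest. The summed signal of the list was 2.98 there against 1.60 to 2.09 on the other ABW arrays. Among those 9, hepatic lipase (LIPC) read -3.12 there and -5.81 to -4.92 on the others. On LBW replicate 3 they were highest at 14 of the 18, with a summed signal of 3.84 against 2.19 to 2.66 on the other LBW arrays. That array had the lowest 75th percentile on muscle, 359.1 intensity units against 597.5 to 803.0, and leukocyte genes were highest there at 6 of 8. The share of all probes highest on that array was not counted, so neither count there can be read as particular to these genes. The mean of the list was -5.10 on ABW replicate 3 and -4.57 on LBW replicate 3. Of the 18 genes 5 were not above background on any muscle array, F13B and CP among them. Their part in the levels of the complement genes on muscle was not tested.

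With ABW replicate 3 left out, 6 of the 10 differences on muscle turned from below to above 0, and 8 of the 10 were then above 0 in place of 2. C3 went from -0.79 (SE 1.05) to 0.15, C4BPA from -0.73 (SE 1.25) to 0.41 and C9 from -0.29 (SE 1.12) to 0.69, none past the test with or without that array. The single array thus set the sign of these differences, all of which were smaller than their standard errors.

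**Figure D4:**
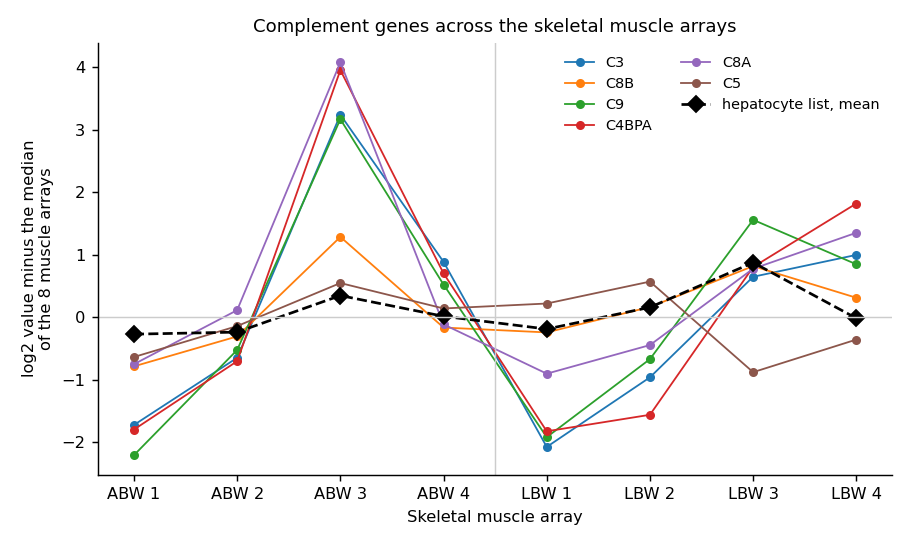
The vertical axis gives the log2 level minus the median of the 8 skeletal muscle arrays, which stand on the horizontal axis, for 6 complement genes (lines with circles) and for the mean of the 18 hepatocyte genes (black diamonds). C3, C9, C8A and C4BPA peak on ABW replicate 3, while the hepatocyte mean is highest on LBW replicate 3, the array with the lowest 75th percentile.

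Between the arrays labelled liver and skeletal muscle 6 of the 10 genes were called, all lower on the liver label, where 37.1% of all probes were. These were C8B, C6, C4BPA, C9, C8A and CFHR3. C6, C8A, C4BPA and CFHR3 were above background on no array labelled liver and on 2, 2, 3 and 0 of the 8 muscle arrays. Their calls set mostly background signals against each other, and no fold is given for them. C9 (log2 difference -1.77, SE 0.75, adjusted p = 0.0451) was above background on 5 of the 6 arrays labelled liver and on all muscle arrays. Left out in turn, 1 array each of liver ABW replicate 2, liver ABW replicate 3 and liver LBW replicate 3 brought the number called to 3. Of the 32 alternatives run, C9 lost its call in 20, CFHR3 in 13, C8A in 11, C6 and C4BPA in 1 each and C8B in none. The order umbilical cord label, skeletal muscle, liver label was measured on every array at C8B. C3 and C5 did not pass the test between the last 2, but C3 passed without skeletal muscle ABW replicate 3 (1.30, adjusted p = 0.0435) and with spike-in scaling, and C5 without skeletal muscle LBW replicate 3 (-0.54, adjusted p = 0.0482) and with normexp. C4BPB and CFHR2 were nearly all under background on both labels, where no difference was detectable.

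Among the umbilical cord arrays ABW replicate 4 was the lowest ABW array at 5 of the 10 genes (C3, C8A, C8B, C9 and C4BPA), against 34.7% of all probes. It was the brightest array, with a 75th percentile of 2390 intensity units. The other ABW arrays of that label had 512.6 to 891.6 and the LBW arrays 315.5 to 741.6.

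Other complement genes were read where the study's list of birth weight genes pairs an accession with a name from a longer list of complement genes, which gave 4 that are reported here. These were C2, the protease of the classical and lectin convertase, ficolin 2 (FCN2), a lectin route recognition protein, a macaque transcript similar to C1R, and SUSD4, a complement inhibitor of the membrane. Being drawn from that list, they are not independent evidence of a birth weight difference. None of the 4 was called by birth weight on any label (limma, adjusted p under 0.05), and at an unadjusted p under 0.05 muscle had 2, the liver label 1 and the umbilical cord label 0.

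C2 on muscle read -1.75, -1.12, -1.13 and -1.19 in ABW and -2.79, -3.65, -2.69 and -2.20 in LBW. Every LBW array lay under every ABW array, with a difference of -1.53 (SE 0.31, unadjusted p = 7.07e-04, adjusted p = 0.0941 by limma). The share of all probes separated in this way on muscle was not counted. On muscle 14.7% of all probes had an unadjusted limma p under 0.05, and slide and birth weight group cannot be told apart.

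By tissue label 3 of the 4 followed the 10 genes. C2, FCN2 and the C1R-like transcript were higher on each umbilical cord array than on any other array, by 22.7-fold at C2 and 80.0-fold at FCN2 over the liver label (log2 differences 4.50, SE 0.23, and 6.32, SE 0.27). C2 was also higher on the liver label than on muscle, by 3.91 (SE 0.23), the opposite of C8B. SUSD4 was highest on muscle, 7.03-fold above the umbilical cord label (log2 difference -2.81, SE 0.28, adjusted p = 2.42e-08).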

How the data were processed

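Agilent rhesus arrays with 1 colour measured the RNA of 22 samples. The deposited scanner files hold intensity values that Feature Extraction had background-subtracted, per the file headers, and not scaled between arrays. The authors' deposited log2 values were scaled to the 75th percentile in GeneSpring and were found to have a median of 0 per probe in each tissue, and they served as an alternative. A probe's 2 spots were averaged, leaving out outlier spots, and the array's 75th percentile was subtracted on the log2 scale. A probe counted as well above background where at least 1 of its 2 spots did. Probes well above background on 75% or more of a group's arrays, for any group, were kept, 17117 of 20217, including all 10 complement genes. All 10 passed through the umbilical cord label, C3, C5, C8B and C9 also through other labels, and the rest through no other label. Groups were compared with limma 3.58.1 in R 4.3.3 (statmod 1.5.0), with Benjamini-Hochberg adjustment over all kept probes at 0.05, within each label for birth weight and in a fit of all 6 groups across labels. Within labels, each complement gene also had an exact permutation test (two-sided). Tables were made with Python 3.11.15 and pandas 2.3.3. The fits within labels were tested on simulated data with 200 probes changed by 2 on the log2 scale. Of these 167 were recovered on muscle, 127 on the liver label and 122 on the umbilical cord label, with 8, 4 and 6 false calls. Changes of that size can thus be missed.

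Named were all 10 genes, other complement genes with a name (1 is not reported here), and the genes of the 4 marker lists (hepatocyte, striated muscle, stroma and matrix, leukocytes) on which a result turned. Of the 8 leukocyte genes 4 were higher and 2 lower on the umbilical cord label than on the liver label (adjusted p under 0.05). The genes and lists were chosen with earlier results of these data known. Marker names came from the study's list of birth weight genes. The RefSeq gene table served for gene order only. The alternatives covered background correction, scaling, filters, a floor, the deposited values, the methods' tests, the spread, slide and replicate blocks and leaving out each array.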

Additional observations from a re-analysis of the deposited data

Results flagged for a closer look

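The interaction of birth weight and tissue label was called at CFHR2, with an adjusted p of 0.0155 by limma. The differences were -3.50 on the arrays labelled umbilical cord, -0.41 on skeletal muscle and -0.05 on those labelled liver. On the last 2 nearly all values were under background, so the interaction does not show that the labels differ.

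Of 40 groups of 4 arrays, 3 held an array whose gap to its nearest neighbour, as a share of the group's range, was above 0.829. Chance gives about 1 in 20 groups such a gap. Umbilical cord ABW replicate 4 was lowest at C8B, with a share of 0.872. Skeletal muscle ABW replicate 3 was highest at C4BPB, with a share of 0.905. Skeletal muscle ABW replicate 2 was highest at CFHR2, with a share of 0.854, and both muscle arrays were the 1 array of their gene above background.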

How the results depend on the processing

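The counts of complement genes called higher on the umbilical cord label, 10 against liver and 10 against muscle, and the 0 called by birth weight on muscle and on the liver label were the same under every alternative run. The 1 called by birth weight on the umbilical cord label was 0 with spike-in scaling, the methods' t-test or the ABW arrays of slide 4 alone, and 2 with the spread of all 6 groups or the slide as a random block. It was 1 with each array left out. Over all probes the 107 called there were 22 with normexp, 2 with spike-in scaling, 65 with quantile normalization, 68 with a floor, 0 with the methods' t-test or slide 4 alone, 483 with the spread of all 6 groups, 182 with the slide as a random block, and 34 to 94 with each array left out. The 11457 probes called between umbilical cord and liver were 6992 with spike-in scaling and 7599 on slide 4 alone, and 10903 to 11635 with each array left out. The 1 gene called in the interaction was 0 with spike-in scaling or without the arrays of slide 6, an alternative chosen after the data were seen. The 1 called in the mean difference was 0 with spike-in scaling, with the methods' two-way test and without slide 6, and 0 to 1 with each array left out. The 6 genes called between liver and muscle were 2 with spike-in scaling, 3 with quantile normalization, and 3 to 6 with each array left out. The cause of these changes was not tested. Deviations of same-numbered arrays had correlations from -0.29 to 0.38, which cannot show whether arrays share an animal. With the replicate block CFHR2 kept its call on the umbilical cord label (adjusted p = 0.0134), and the probes called fell to 65. Of 1890 values of single genes and alternatives 58 lost a call, 6 gained one and none turned direction while called. A further 12 moved in size without a call gained or lost. Normexp moved the median of all probes by 0.30 and spike-in scaling by -0.43 for birth weight on the umbilical cord label. Dim signals limit C6, C8A, C4BPA, C4BPB, CFHR2 and CFHR3 away from that label.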
